A study of Mus musculus with 3 samples.

Results

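Messenger RNA levels were examined for 10 subunit genes of the vacuolar proton pump (V-ATPase), taken as a named list of 10 among 27179 genes measured. The list held 2 subunits known to be enriched in osteoclasts, Atp6v0d2 and Tcirg1, and 8 general subunits: Atp6v0d1, Atp6v0a1, Atp6v1a, Atp6v1b2, Atp6v1c1, Atp6v1d, Atp6v1e1 and Atp6v1h. All 10 passed the filter on low values, a mean of at least 50 over the libraries. The study treated cultures of wild-type mouse bone marrow stromal cells for 3 days with extracellular vesicles, the membrane-bound particles that cells release, and sequenced 1 library per vesicle source. Ocn-EV vesicles came from CAGS-Snorkel mice crossed with Ocn-Cre, a line in which the osteocalcin promoter of mature osteoblasts drives Cre. Prx1-EV vesicles came from CAGS-Snorkel mice crossed with Prx1-Cre, a line that drives Cre in limb bud mesenchyme. All-EV vesicles, whose culture is the control, came from wild-type mice without the Snorkel allele. Each preparation was 1 pool of bone marrow plasma from 5 C57BL/6N mice (2 male and 3 female) aged 6 months, taken up with an HA antibody on magnetic beads. All 3 cultures were kept at 3% O2. No culture without vesicles was analysed here.

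The vacuolar proton pump is a rotary machine that moves protons across membranes at the cost of ATP. Its cytosolic V1 domain holds the ATP-hydrolysing A subunit, the B subunit, the stalk subunits C, D, E and G, and the regulatory subunit H. Its membrane domain, V0, holds subunit a, which forms the proton path, a ring of proteolipids that carries the protons, and subunit d, which couples the ring to the V1 rotor. Every nucleated cell uses the pump to acidify lysosomes and endosomes. Osteoclasts also place it in their ruffled border, where it acidifies the bone surface, and there use the a3 subunit encoded by Tcirg1 and the d2 subunit encoded by Atp6v0d2. Macrophages also express both of these genes.

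Each group was 1 library, so no comparison below has a replicate check, and higher or lower refers to single libraries. The libraries of the control, Ocn-EV and Prx1-EV cultures held 15558165, 14233978 and 17269204 gene-assigned reads. Levels are the authors' normalised read counts, in which 1 read is worth 1.13, 1.04 and 0.872 in the same order. The labelled cell type was stromal, yet 15 of 15 macrophage markers passed the filter, with a summed level of 313507 in the control, 191495 in Ocn-EV and 176393 in Prx1-EV. Of these, 4 were at least 1.5-fold higher and 4 lower in Ocn-EV than in All-EV, beside 13.8% and 13.6% of all genes. In Prx1-EV 3 were higher and 6 lower, beside 12.7% each way. The sum was led by Lyz2 (140306 in the control, 51741 in Ocn-EV and 40548 in Prx1-EV), whereas 9 of the 15 markers lay above the control in each comparison, with median log2 ratios of 0.16 and 0.24. Of 11 stromal markers 7 passed and 6 were higher in each, with a summed level of 14392, 77857 and 51835 in the same order of libraries and Lum at 0 reads in all 3 libraries. Of 9 osteoclast markers, Calcr and Dcstamp were at 0 reads in all libraries and Ocstamp and Oscar reached at most 1.74. In such bulk samples, fewer cells of a type and less RNA per cell cannot be told apart.

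As deposited, the osteoclast-enriched Atp6v0d2 was nearly level across the libraries. The gene lies at chr4:19876838-19922566 in GRCm38.p6 and had a level of 9249 in the control, 8880 in Ocn-EV and 10254 in Prx1-EV. Its level was highest with Prx1 vesicles and lowest with Ocn vesicles. The log2 ratio to All-EV was -0.059 in Ocn-EV (95% interval -0.10 to -0.015) and 0.15 in Prx1-EV (0.11 to 0.19), where the interval is an exact conditional binomial one that covers counting error only. Both differences exceeded counting error but were far below the 1.5-fold by which a gene is here called higher or lower. The Ocn-EV ratio turned to 0.20 when libraries were instead set to equal totals of reads, so its direction depended on the scaling.

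Atp6v0d1, the general d subunit, stood at 2745, 2414 and 2494 in the control, Ocn-EV and Prx1-EV libraries. It was thus slightly lower in both treated libraries, with a log2 ratio in Ocn-EV of -0.19 (-0.27 to -0.10) and in Prx1-EV of -0.14 (-0.22 to -0.060), and these turned to 0.071 and 0.086 at equal totals. The gene lies at chr8:105524461-105566064.

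The contrast between the d genes rests on reads telling them apart. Over their coding stretches in GENCODE vM21, of 350 codons in Atp6v0d2 and 351 in Atp6v0d1, 694 of 1053 aligned bases (65.9%) were identical. The longest identical run was 17 bases, and 0% of the 50-base stretches of either gene's longest transcript occurred in a transcript of another gene. Reads were 150 bases from each end.

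Atp6v0d2 was the more abundant d gene in every library, and its lead was larger in both treated libraries. Per kilobase of the longest transcript, the level of Atp6v0d2 was 2.16, 2.36 and 2.64 times that of Atp6v0d1 in the control, Ocn-EV and Prx1-EV libraries. Atp6v0d2 thus made up 68.4%, 70.2% and 72.5% of the pair on that scale. The ratio of the d genes was 1.09 times (1.02 to 1.16) that of All-EV in Ocn-EV and 1.22 times (1.15 to 1.30) in Prx1-EV. Between the treated libraries it was 0.895 times (0.842 to 0.952), Ocn-EV over Prx1-EV. Scaling of a library and transcript length both cancel in these folds. The 3 intervals exclude 1 for counting error, and the spread between cultures was not measured.

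Tcirg1, which encodes the a3 subunit of the ruffled border and is mutated in osteopetrosis, was slightly higher in both treated libraries. The gene lies at chr19:3896050-3907133 and stood at 7345 in the control, 8137 in Ocn-EV and 8670 in Prx1-EV. The log2 ratio to All-EV in Ocn-EV was 0.15 (0.10 to 0.20), and in Prx1-EV it was 0.24 (0.19 to 0.28), short of 1.5-fold in both. Atp6v0a1, the general a1 subunit at chr11:101009422-101063719, was the one member that passed the 1.5-fold mark upward. Its level was 2378 in the control, 4064 in Ocn-EV and 4347 in Prx1-EV, so both treated libraries lay well above the control. The fold was 1.71 in Ocn-EV (log2 0.77, 0.70 to 0.85) and 1.83 in Prx1-EV (log2 0.87, 0.80 to 0.94). Of all genes tested, 90.4% had a lower log2 ratio than Atp6v0a1 in Ocn-EV and 93.3% in Prx1-EV.

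The balance of the a isoforms thus went the other way from that of the d isoforms, toward the general subunit in both treated libraries. Per kilobase, the level of Tcirg1 was 4.23 times that of Atp6v0a1 in the control, 2.74 times in Ocn-EV and 2.73 times in Prx1-EV. Its share of the pair was 80.9%, 73.3% and 73.2% in that order. The ratio of Tcirg1 to Atp6v0a1 was 0.648 times (0.609 to 0.690) that of All-EV in Ocn-EV and 0.646 times (0.608 to 0.685) in Prx1-EV. Between the treated libraries the fold was 1.00 (0.954 to 1.06), within counting error. Tcirg1 itself was not lower in the treated libraries, and Atp6v0a1 was higher by more. The coding stretches of the pair, of 834 and 839 codons, were 60.4% identical with a longest identical run of 29 bases, and no 50-base stretch of either was shared with another gene (0%). The third a isoform expressed, Atp6v0a2 of the Golgi and endosomes, stood at 713, 813 and 690, and the kidney isoform Atp6v0a4 was at 0 reads in every library.

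**Figure D1:**
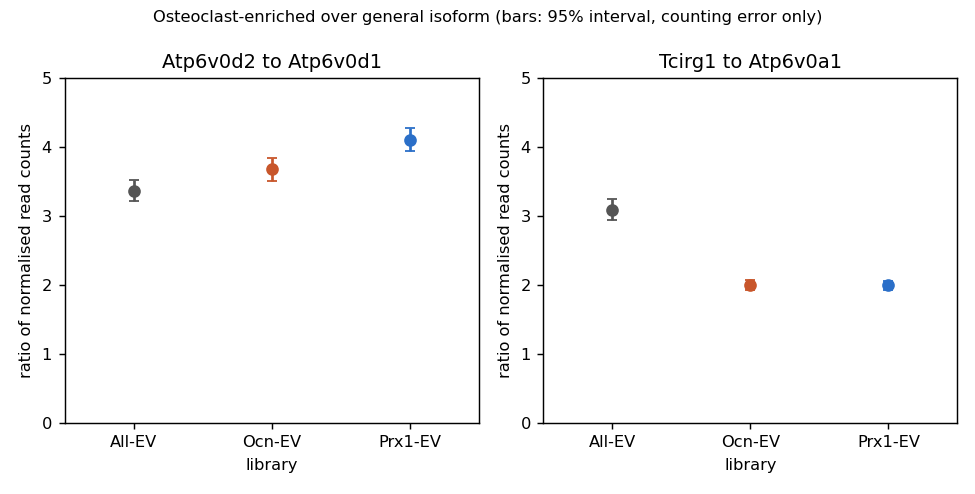
Ratio of normalised read counts of each osteoclast-enriched subunit to the general isoform at the same position of the complex, in the 3 libraries. Points are single libraries and bars are 95% intervals of counting error. The ratio of Atp6v0d2 to Atp6v0d1 runs from 3.37 (All-EV) to 4.11 (Prx1-EV), whereas that of Tcirg1 to Atp6v0a1 falls from 3.09 in All-EV to 2.00 and 1.99.

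As deposited, all 6 V1 members were lower in both treated libraries than in All-EV, Atp6v1c1 by most, and at equal totals the ratio of Atp6v1b2 in Prx1-EV alone turned, to 0.080. Atp6v1c1 encodes the C subunit, which holds the V1 stalk to V0 and leaves the complex when the pump is taken apart. The gene lies at chr15:38661904-38692444 and stood at 20399 in the control, 9724 in Ocn-EV and 11630 in Prx1-EV. The level was 2.10-fold lower in Ocn-EV (log2 -1.07, interval -1.11 to -1.03) and 1.75-fold lower in Prx1-EV (log2 -0.81, -0.84 to -0.78). Only 3.43% of the genes tested had a lower ratio in Ocn-EV and 6.49% in Prx1-EV. Its isoform Atp6v1c2 had at most 3.11, the value of 3 reads, in any library.

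The A and B subunits were lower too, by less than Atp6v1c1. Atp6v1a, the ATP-hydrolysing A subunit, had levels of 24752, 18492 and 20570 in the control, Ocn-EV and Prx1-EV libraries. Both treated libraries lay below the control, at log2 ratios of -0.42 and -0.27. Atp6v1b2, the B subunit of most tissues, had levels of 7409, 6186 and 6699 with ratios of -0.26 and -0.15. The ratio of Atp6v1c1 to Atp6v1a, chosen after the values were seen, was 0.824 in the control, 0.526 in Ocn-EV and 0.565 in Prx1-EV. These are ratios of normalised counts, not corrected for length, and serve only to compare libraries. Atp6v1c1 was thus lower by more than its V1 partner, since the ratio was 0.638 times (0.618 to 0.659) that of All-EV in Ocn-EV and 0.686 times (0.666 to 0.706) in Prx1-EV.

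The remaining V1 members were also lower, short of 1.5-fold. Atp6v1d, of the central rotor, stood at 2035, 1478 and 1540 in the control, Ocn-EV and Prx1-EV libraries (log2 ratios -0.46 and -0.40). Atp6v1e1, of the peripheral stalks, stood at 3694, 2536 and 2865 (-0.54 and -0.37). Atp6v1h, which regulates the joined complex, stood at 2913, 2209 and 2347 (-0.40 and -0.31). In each of the 3 genes All-EV was the highest library and Ocn-EV the lowest. Atp6v1e1, Atp6v1h and Atp6v1b2 overlap protein-coding genes on the other strand (Slc25a18, Rgs20 and Slc18a1). The strand setting of the counting is not given in the texts used here, and those 3 neighbours had at most 25.9 in any library.

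**Figure D2:**
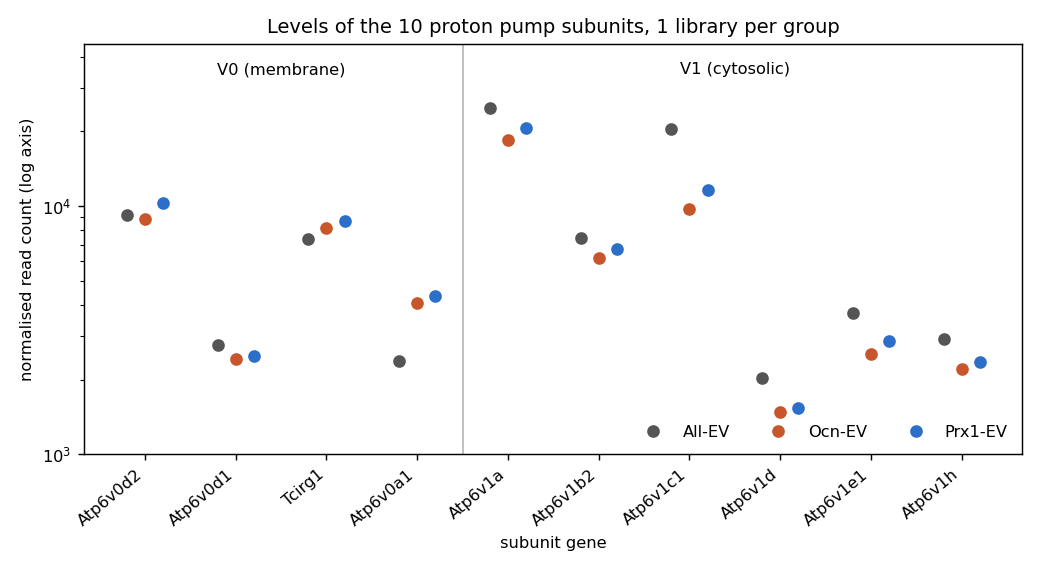
Normalised read counts of the 10 subunit genes on a log axis, 1 point per library (grey All-EV, orange Ocn-EV, blue Prx1-EV). As deposited, the grey point is on top in all V1 genes, with the widest gap for Atp6v1c1 (20399 against 9724 and 11630). Among the V0 genes Atp6v0a1 is the one with a wide gap, with the grey point lowest.

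Counted over the 10 members, 1 was at least 1.5-fold higher (Atp6v0a1) and 1 at least 1.5-fold lower (Atp6v1c1) in Ocn-EV than in All-EV. Among all 11067 genes tested in this comparison, 13.8% were called higher and 13.6% lower, so a count of 1 in 10 is near the background. In Prx1-EV against All-EV the same 2 genes were called, 1 in each direction, beside 12.7% higher and 12.7% lower of all genes. At least 2-fold apart, 1 member (Atp6v1c1) was lower in Ocn-EV, beside 4.2% of all genes lower and 6.27% higher, and none in Prx1-EV, beside 3.66% lower and 5.12% higher. These 2-fold calls depended on the scaling: at equal totals Atp6v1c1 was no longer 2-fold lower in Ocn-EV (log2 -0.81), and Atp6v0a1 was at least 2-fold higher in both (1.10 in Prx1-EV), beside 10.1% and 8.20% of all genes higher. With a ratio of at least 5 to 4, 1 member was higher in each comparison, beside 25.2% (Ocn-EV) and 25% (Prx1-EV) of all genes. On that mark 5 members were lower in Ocn-EV, beside 27% of all genes, and 3 in Prx1-EV, beside 25.4%. The median log2 ratio of the members was -0.33 in Ocn-EV and -0.21 in Prx1-EV, beside -0.015 and 0.00038 over all genes tested. Below 0 were 8 of 10 members in Ocn-EV and 7 in Prx1-EV, beside 51.3% and 50% of all genes. The comparisons share the All-EV library, so they are not independent of each other. At equal totals the median of all genes rose to 0.24 and 0.22 and that of the members to -0.073 and 0.019. Of the genes past 1.5-fold, 50.4% and 50.0% were higher as deposited and 78.8% and 77.9% at equal totals. The same 2 members passed 1.5-fold at equal totals, Atp6v1c1 in Prx1-EV only just (-0.59). Relative to all genes the members' median was then -0.31 and -0.21, as it was for the deposited values. Rescaling shifts all genes of a comparison nearly alike, so this difference could hardly change.

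The osteoclast-enriched pair and the general members differed in position, as did the domains. Both osteoclast-enriched members are V0 subunits and all 6 V1 members are general, so class and domain cannot be fully told apart. Within V0, the pair lay between the general Atp6v0d1 (-0.19 in Ocn-EV and -0.14 in Prx1-EV) and Atp6v0a1 (0.77 and 0.87). The 8 general members had a median of -0.41 in Ocn-EV and -0.29 in Prx1-EV, with 7 of 8 below 0 in each (6 and 5 at equal totals), whereas Atp6v0d2 and Tcirg1 lay between -0.059 and 0.24. Split by domain instead, the 4 V0 members had medians of 0.045 and 0.19 and the 6 V1 members -0.44 and -0.34. Their summed levels differed likewise: the V0 members went from 21717 in the control to 23495 in Ocn-EV and 25765 in Prx1-EV. The V1 members went from 61201 to 40623 and 45650. Over all 10 V0 subunits, of which 9 were tested, the summed level as deposited instead went down, from 41602 to 37127 and 39599. As a share of the reads it went up, from 0.236% to 0.252% and 0.263%, so the direction of this sum depended on the scaling. The medians of these V0 subunits were -0.19 and -0.14, with 6 of 9 below 0 and 1 called higher against 2 lower in each comparison. At equal totals the medians turned to 0.071 and 0.086, beside 0.24 and 0.22 over all genes. The sums over members were led by Atp6v1a and Atp6v1c1 in V1 and by Atp6v0d2 and Tcirg1 in V0. Over all V0 subunits, the proteolipid Atp6v0c added the most in the control (10001), and it stood at 6332 in Ocn-EV and 6401 in Prx1-EV. All 10 members together took 0.471%, 0.435% and 0.474% of the reads of the control, Ocn-EV and Prx1-EV libraries.

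**Figure D3:**
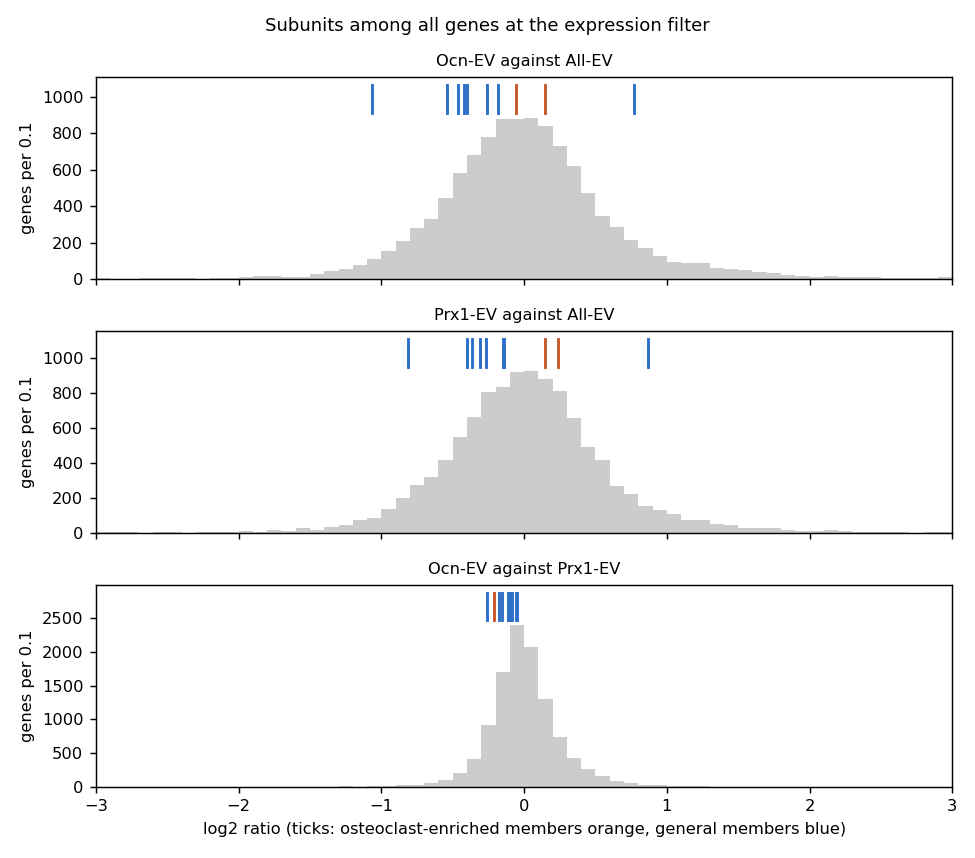
Histograms of the log2 ratio of all 11067 genes tested, in bins of 0.1, for each pair of libraries, with ticks for the 2 osteoclast-enriched members (orange) and the 8 general members (blue). Genes beyond 3 in either direction are outside the axis. Most blue ticks of the first pair of panels lie left of 0, with 1 at the far left (Atp6v1c1) and 1 at the far right (Atp6v0a1), and in the lowest panel all ticks lie just left of 0.

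The treated libraries differed little from each other. All 10 members were lower in Ocn-EV than in Prx1-EV, with a median log2 ratio of -0.11, beside -0.013 over all genes and 53% of genes below 0. None of the 10 passed 1.5-fold in either direction, beside 2.24% of all genes higher and 1.3% lower, or 0.325% and 0.19% at 2-fold. The widest differences were those of Atp6v1c1 (-0.26) and Atp6v0d2 (-0.21, interval -0.25 to -0.17), and the narrowest those of Atp6v0d1 (-0.047) and Atp6v1d (-0.059), both within counting error. Counting reads with an exact conditional binomial test and Benjamini-Hochberg adjustment, which compares libraries and not conditions, called 7 of the 10 here and 25.7% of all genes. In either comparison with All-EV it called 10 of 10, beside 64.5% of all genes for Ocn-EV and 64.1% for Prx1-EV. Such a test calls genes with many reads more readily. By control level the members lay above 86.7% (Atp6v1d) to 99.5% (Atp6v1a) of the genes tested, so the shares of all genes are not a like background.

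The order of the members by level per kilobase of longest transcript changed between libraries. In All-EV it ran from Atp6v1a (5846) through Atp6v1c1 (4140), Atp6v0d2 (3643), Atp6v1b2 (2623), Tcirg1 (2415), Atp6v0d1 (1685) and Atp6v1e1 (1262) to Atp6v1h (603), Atp6v0a1 (571) and Atp6v1d (555). The neighbours Atp6v1h and Atp6v0a1, and Atp6v0a1 and Atp6v1d, did not differ there beyond counting error. With these lengths, in both treated libraries Atp6v1a again came first, at 4367 in Ocn-EV and 4858 in Prx1-EV. Atp6v0d2 (3497 and 4039) and Tcirg1 (2676 and 2851) then came ahead of Atp6v1b2 (2190 and 2371) and Atp6v1c1 (1974 and 2360). Atp6v1c1 had thus gone from the second place to the fifth, and in Prx1-EV it did not differ from Atp6v1b2 beyond counting error. Atp6v0a1 ranked above Atp6v1e1 in both (976 against 866 and 1044 against 978). With lengths from the union of exons the order differed. Atp6v0d2 then came ahead of Atp6v1a in both treated libraries (3269 against 3060 in Ocn-EV and 3775 against 3403 in Prx1-EV). Atp6v1c1 was then the fourth in Ocn-EV (1736, after Tcirg1 at 1768) and the third in Prx1-EV (2076, ahead of Tcirg1 at 1883), above Atp6v1b2 (1166 and 1263) in both, and Atp6v0a1 was below Atp6v1e1 in Prx1-EV (663 against 697). Under either length Atp6v1c1 was in the second place in the control and lower in the order in both treated libraries.

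Values were also taken for the other 13 canonical subunits, and those that passed the filter mostly lay below the control as well. Of the 13, 8 passed, 6 and 7 of which lay below 0 in Ocn-EV and Prx1-EV. Among the 8, 0 were called higher and 3 lower in each comparison with All-EV, with medians of -0.54 in Ocn-EV and -0.48 in Prx1-EV. Of all genes tested, 13.8% were called higher and 13.6% lower in Ocn-EV, and 12.7% each way in Prx1-EV. The called genes were the proteolipid Atp6v0c (10001 in the control, 6332 in Ocn-EV and 6401 in Prx1-EV), the small membrane subunit Atp6v0e2 (132, 82.8 and 87.2) and the stalk subunit Atp6v1g1 (3170, 1900 and 2057). None of the 3 stayed past 1.5-fold at equal totals. There Atp6v1g2 (62.2, 88.0 and 68.0) was instead called higher in Ocn-EV, beside 24.7% of all genes, though its deposited ratio was within counting error. Of the 50-base stretches of the longest transcript, 12.2% in Atp6v0c and 19.2% in Atp6v1g1 also occur in processed pseudogenes, so their counts are less certain. Atp6v0e stood just short of the mark, at log2 ratios of -0.58 and -0.48. The isoforms Atp6v0a4, Atp6v1b1, Atp6v1e2 and Atp6v1g3, known from kidney, testis and other specialised tissues, were at 0 reads in all libraries, where 3 reads would be 3.40, 3.11 and 2.62. Over all 13 V1 subunits, of which 9 were tested, the medians were -0.46 and -0.37. Over all 23 subunits, 18 were tested, with 1 higher and 4 lower in each comparison, beside the same shares of all genes, and medians of -0.43 and -0.34.

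**Figure D4:**
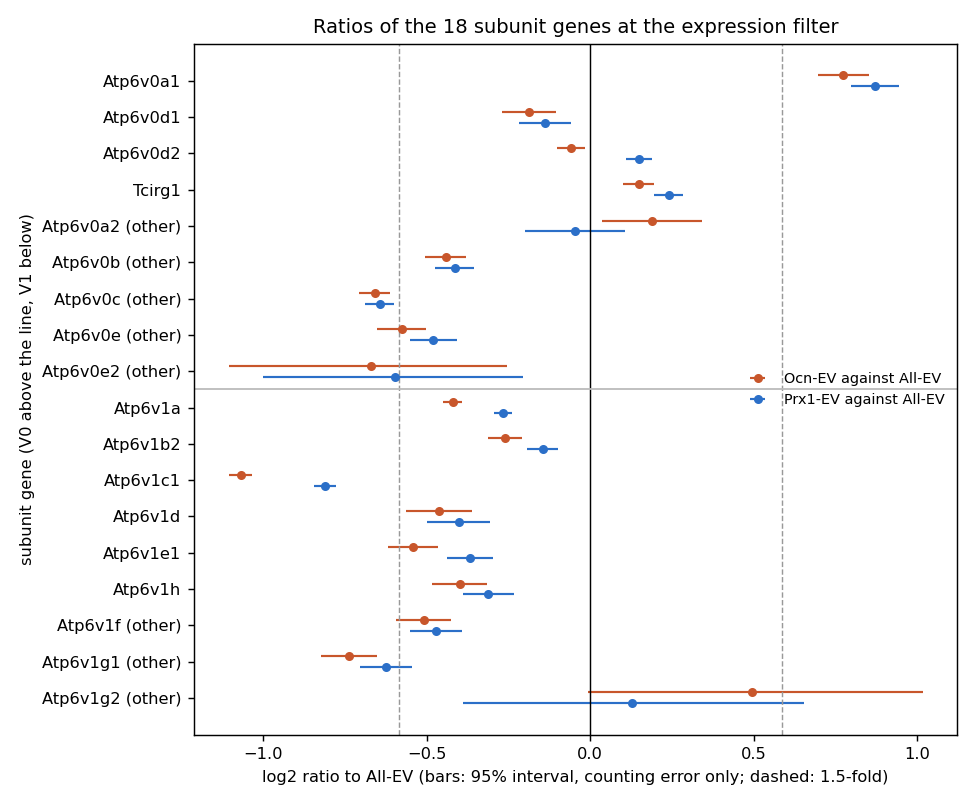
Log2 ratio to All-EV of the 18 subunit genes at the expression filter, for Ocn-EV (orange) and Prx1-EV (blue). Bars are 95% intervals of counting error and dashed lines mark 1.5-fold. Atp6v0a1 is the one gene with both points right of the upper line, and Atp6v1c1, at -1.07 and -0.81, lies farthest left.

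Promoter windows were compared because several subunit genes are known to carry an E-box element called the CLEAR site, the binding site of the lysosomal regulators of the MiT family (Mitf, Tfeb, Tfe3 and Tfec). In the RefSeq windows of GRCm38.p6, from 250 bases before to 50 after a transcript start, 6 of the 10 members and 17 of the 23 subunits had an entry. Both strands were searched for the E-box core CACGTG. A longer CLEAR core was TCACGTG, which overlaps the E-box core by containing it. The M-box core was TCATGTG. Both the CLEAR core and the E-box core were found in 2 of the 6 members, Atp6v0d1 and Atp6v1a, and in 4 of the 17 subunits, the others being Atp6v0b and Atp6v0e. Of 27025 genes with a window, 4.29% held the CLEAR core, 8.09% the E-box core and 4.31% the M-box core, and of their 32851 windows 3.77%, 7.15% and 3.77%. The M-box core was found in 1 subunit, Atp6v0c. The windows of Tcirg1 and Atp6v0a1 held none of the 3 motifs, and there was no entry for Atp6v0d2, Atp6v1b2, Atp6v1c1 or Atp6v1h. The Atp6v0a1 window (chr11:101010148-101010447) belongs to a transcript start inside the annotated gene, so the annotated start of that gene was not searched. The stretches around the matches follow, on the minus strand at chr16:44139350-44139419, chr8:105566061-105566124 and chr4:117887330-117887389, with the E-box core in capitals.
Atp6v1a: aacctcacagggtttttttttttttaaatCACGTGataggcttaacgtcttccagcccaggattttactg
Atp6v0d1: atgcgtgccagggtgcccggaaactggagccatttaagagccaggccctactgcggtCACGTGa
Atp6v0b: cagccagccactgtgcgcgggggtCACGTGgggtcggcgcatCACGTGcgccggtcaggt

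A match is a description of the letters only, and the Atp6v1a window belongs to a transcript start inside the annotated gene. As deposited, the genes printed were lower in both treated libraries, and at equal totals Atp6v0d1 was not: Atp6v1a at -0.42 and -0.27, Atp6v0d1 at -0.19 and -0.14, and Atp6v0b, a second proteolipid, at -0.44 and -0.41. Among the 4 MiT factors, 2 were called higher in Prx1-EV (Tfeb and Mitf), beside 12.7% of all genes. In Ocn-EV 0 were, beside 13.8%, and at equal totals 2 were, beside 24.7%. None was called lower in either, beside 13.6% of all genes in Ocn-EV and 12.7% in Prx1-EV. Tfeb, the main activator of lysosomal genes, stood at 487, 724 and 856 in the control, Ocn-EV and Prx1-EV libraries (log2 0.57 and 0.81). Mitf stood at log2 ratios of 0.44 and 0.60, Tfe3 at 0.28 and 0.29 and Tfec at -0.41 and -0.44. As deposited, 3 of 4 factors lay above 0 in both comparisons, and 8 and 7 of 10 members lay below it. At equal totals 6 and 5 of the members lay below 0. A link between the factors and the subunit genes was not tested.

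Other genes of osteoclast acid secretion and resorption did not move as one with the osteoclast-enriched subunits. Of 9 such genes, all tested, 2 were called higher and 4 lower in Ocn-EV, beside 13.8% and 13.6% of all genes. In Prx1-EV 2 were called higher and 3 lower, beside 12.7% each way. The medians of -0.14 and -0.17, beside -0.015 and 0.00038 over all genes, turned to 0.11 and 0.054 at equal totals, beside 0.24 and 0.22. Clcn7, the chloride-proton exchanger that balances the charge of the pump, stayed close to the control, as deposited, like Atp6v0d2, at 3922, 3556 and 4047 in the control, Ocn-EV and Prx1-EV libraries. Its partner Ostm1 stood at 1251, 1427 and 1509, slightly higher in both treated libraries as Tcirg1 was. Car2, the carbonic anhydrase that supplies protons, had 111, 125 and 98.6, within counting error. Snx10, a sorting nexin needed for the ruffled border, stood at log2 ratios of -0.70 and -0.42 and was called lower in Ocn-EV alone, a call lost at equal totals.

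The secreted resorption enzymes lay far lower in both treated libraries. Ctsk, the collagen-degrading cathepsin K, had 4185 in the control, 843 in Ocn-EV and 967 in Prx1-EV (log2 -2.31 and -2.11). Acp5, tartrate-resistant acid phosphatase, had 659, 222 and 247 (-1.57 and -1.41), and Mmp9, a gelatinase, log2 ratios of -6.15 and -5.75. The ratio of Atp6v0d2 to Ctsk, chosen after the values were seen, was 2.21 in the control, 10.5 in Ocn-EV and 10.6 in Prx1-EV, a fold of 4.77 and 4.80. That of Tcirg1 to Ctsk was 1.76, 9.65 and 8.96, and both ratios again serve only to compare libraries. Atp6v0d2 and Tcirg1 were thus not lower by 1.5-fold in libraries where the enzymes were. At equal totals their log2 ratios were 0.20 and 0.40 in Ocn-EV and 0.37 and 0.46 in Prx1-EV. Slc4a2, the bicarbonate exchanger of the osteoclast, was higher (log2 0.91 and 0.85), as was Plekhm1, an adaptor of lysosome traffic (0.77 and 0.86). The summed level of the 9 osteoclast markers was 9780, 2604 and 2839 in the control, Ocn-EV and Prx1-EV libraries. Ctsk, Mmp9 and Acp5 are among these markers. In the control the sum was led by Ctsk and Mmp9 (2865). In Ocn-EV and Prx1-EV it was led by Ctsk, Itgb3 (809 and 939) and Nfatc1 (691 and 631). Of the 5 markers tested 4 were called lower and 1 higher in each comparison, beside 13.6% and 12.7% of all genes lower and 13.8% and 12.7% higher. The higher one was Nfatc1, the master transcription factor of osteoclasts (log2 0.79 and 0.66). Macrophage and stromal markers moved as well, and the part of any cell type in the subunits' levels was not tested.

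**Figure D5:**
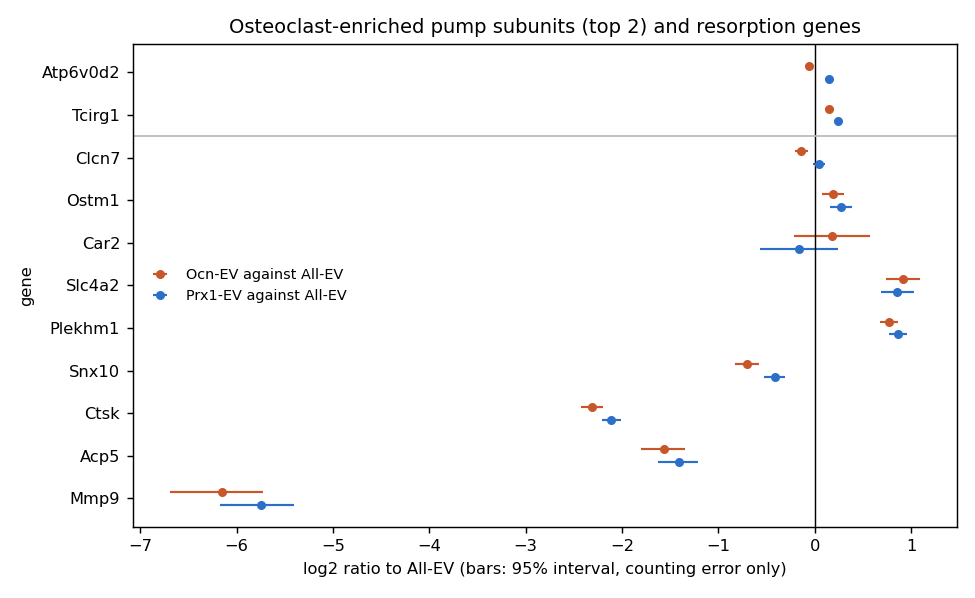
Log2 ratio to All-EV of Atp6v0d2 and Tcirg1 (above the line) and of 9 resorption genes (below it), for Ocn-EV (orange) and Prx1-EV (blue), with 95% intervals of counting error. The pump subunits, Clcn7, Ostm1 and Car2 lie near 0, whereas Ctsk, Acp5 and Mmp9 lie at -1.41 or lower.

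Genes that assemble or regulate the pump had medians above 0, whereas their counts of calls were near the background. Of 13 such genes, all tested, 1 was called higher and 1 lower in Ocn-EV, beside 13.8% and 13.6% of all genes. In Prx1-EV 2 were called higher and 1 lower, beside 12.7% each way, and the medians were 0.18 and 0.19. At equal totals, 4 and 5 of them were called higher and 0 lower in either, beside 24.7% and 22.9% of all genes higher. The accessory subunit Atp6ap1, which is built into V0, had 5998, 6790 and 6884 in the control, Ocn-EV and Prx1-EV libraries, and Atp6ap2, the prorenin receptor, 3778, 2959 and 3354. Rogdi and Dmxl1 are parts of the RAVE complex that joins V1 to V0, and their log2 ratios were 0.91 and 0.70 for Rogdi and 0.47 and 0.82 for Dmxl1. Rnasek, a small V0 protein, was lower (-0.74 and -0.69), and Ccdc115, an assembly factor, stood at 0.30 and 0.57.

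By distance in the pair of log2 ratios to All-EV, the genes most like Atp6v0d2 among 10628 candidates included Vps26a, Zfp87, Epc1 and Dhx29. Those most like Tcirg1 were Tmem229b, Mtf1, Cdk18, Vps33b and Flna. Within a distance of 0.1 lay 355 genes for Atp6v0d2 and 515 for Tcirg1. With 3 libraries such likeness was common.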

How the data were processed

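Messenger RNA of 3 cultures, 1 per vesicle preparation, was sequenced from 100 ng of total RNA per the labels' protocols. Groups were taken from the sample labels. How the HA antibody took up vesicles of wild-type mice is not stated in the texts used here. The deposited signal values are gene counts divided by size factors, made by the authors. The submitters' processing notes list the aligner HISAT2 2.2.1, the counter featureCounts 2.0.3, the package DESeq2 2.11.40.8, the read tools Trimmomatic 0.38.1 and FastQC 0.74, and build mm10. In each library 100% of values were whole multiples of 1 read's value (tolerance 1e-06), so whole reads were recovered. The totals of 14233978 to 17269204 reads set the precision, and intervals cover counting error only, since reads that carry no molecular identifier may be copies of 1 molecule.

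The members and gene lists were chosen with earlier results of these data known. Groups of 1 library allow no test of a condition. Ratios are log2((a + 1)/(b + 1)) of the deposited values, and folds are plain ratios. Intervals of ratios are 95% exact conditional binomial (Clopper-Pearson) intervals from the recovered reads, computed with scipy 1.17.1 and tested on simulated data. Intervals of ratios of 2 genes are on the log scale. Genes averaging at least 50 over the libraries were tested (11067), and those at least 1.5-fold apart were called. RefSeq symbols (GRCm38.p6) matched 25275 of 27179 identifiers. Lengths and coding stretches came from GENCODE vM21.

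Named were all 10 members, the 4 genes of each list farthest from 0 in either comparison with All-EV, a few fixed pathway genes (Clcn7, Ostm1, Car2, Ctsk, Acp5, the MiT factors, Atp6ap1, Atp6ap2 and Atp6v0c) and the 5 genes most like Atp6v0d2 or Tcirg1, of which 1 is not reported here. Other genes named, and the ratios to Ctsk and Atp6v1a, were chosen after their values were seen. A planned comparison of proteins was replaced by one of coding sequences, chosen after the data were seen. Alternatives were equal library totals, recomputed size factors, other pseudocounts, folds and filters, and lengths from the union of exons. The 2-fold mark at equal totals was added after seeing the data.

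Of the other marker lists, the summed level in the control, Ocn-EV and Prx1-EV libraries was 395, 2210 and 907 for osteoblasts, 10632, 1848 and 1624 for megakaryocytes and 663, 916 and 951 for endothelium. It was at most 60 in any library for neutrophils, lymphocytes, adipocytes and erythroid cells.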

Additional observations from a re-analysis of the deposited data

How the results depend on the processing

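No paired analysis was possible because each group had 1 library and the labels gave no replicate numbers. For the same reason no library could be left out. Setting libraries to equal totals moved the members' median to -0.073 in Ocn-EV against All-EV and reversed it to 0.019 in Prx1-EV against All-EV, a shift shared by all genes. It left the members' counts past 1.5-fold as they were. Of 30 member ratios, 21 moved beyond counting error at equal totals, and all 30 kept their value within it under each of 3 other settings (recomputed size factors and pseudocounts of 0.5 and 5). These 3 settings are a weak check. The recomputed size factors were nearly proportional to the authors', and the members' levels were far above either pseudocount. With a least ratio of 5 to 4 in place of 1.5-fold, 5 members were lower in Ocn-EV and 3 in Prx1-EV against All-EV, beside 27% and 25.4% of all genes. With a mark of 2-fold, 0 were higher in either, and 0 were lower in Prx1-EV. With both 2-fold and equal totals, 1 member was higher and 0 were lower in either comparison with All-EV. With lengths from the union of exons, the level of Tcirg1 per kilobase was 2.85 times that of Atp6v0a1 in Ocn-EV and 2.84 times in Prx1-EV.

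Over all genes in Ocn-EV against All-EV, the number higher was 2333 with a filter of 10, 889 with a filter of 200, 4173 with no filter, 2736 at equal totals and 3404 by the exact test on reads. The number lower was 3642 with no filter, 736 at equal totals and 3730 by the exact test. Of called genes 50.4% were higher as deposited and 78.8% at equal totals. In Prx1-EV against All-EV, the number higher was 839 with a filter of 200, 3892 with no filter, 2539 at equal totals and 3502 by the exact test, and the number lower 3661 with no filter, 720 at equal totals and 3590 by the exact test. The share higher went from 50.0% to 77.9%. In Ocn-EV against Prx1-EV the number higher was 843, 58, 2630 and 1227 with filters of 10, 200 and none and by the exact test, and the number lower 511, 18, 2082 and 1613 in that order.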

Other observations

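Other genes of the lysosome were listed beside the pump. Of all genes tested, 13.8% were called higher and 13.6% lower in Ocn-EV, and 12.7% each way in Prx1-EV. At equal totals these shares were 24.7% and 6.65% in Ocn-EV and 22.9% and 6.51% in Prx1-EV. The median of all genes was -0.015 in Ocn-EV and 0.00038 in Prx1-EV as deposited, and 0.24 and 0.22 at equal totals. Both lists below had medians under it with either scaling. Of 10 lysosomal membrane genes, 0 were called higher and 1 lower in Ocn-EV, and 1 higher and 0 lower in Prx1-EV, with medians of -0.20 and -0.089 that turned to 0.057 and 0.14 at equal totals, where 1 was called higher and 0 lower in each. Npc1, the cholesterol exporter, had log2 ratios of -0.63 and -0.47, the abundant glycoprotein Lamp1 -0.46 and -0.43, and Tmem192 -0.54 and -0.37. Ctns, the cystine exporter, stood at 0.53 and 0.75. Of 10 genes of the lysosomal platform that recruits mTORC1, which is linked to the pump, 0 were called higher and 2 lower in Ocn-EV, and 0 in either direction in Prx1-EV, with medians of -0.14 and -0.081 that turned to 0.12 and 0.14 at equal totals. The lower genes were the Ragulator subunit Lamtor5 (-0.75 and -0.49) and the GTPase Rragd (-0.66 and -0.39). At equal totals both calls were lost, with 0 lower and 1 higher in each comparison. Lamtor4 stood at -0.58 and -0.57, and Flcn, the folliculin that acts on the Rag GTPases, at 0.34 and 0.45.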
